A study of Drosophila melanogaster with 36 samples.

Results

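Gene expression in muscle of wild-type Drosophila melanogaster was compared between flies aged 45 d and 30 d, with 3 libraries at each age, which are 6 of the 36 libraries of the series. The 6 compared libraries were chosen by their labels alone (tissue, age and genotype). All flies carried the genotype WT of strain 5905, and no treatment was given to any of these groups. The study measured poly-A RNA over the adult life of heads and muscles and, separately, in whole flies that differ in the lysine acetyltransferase Gcn5. The labels give neither the sex nor which muscle was taken, and they do not say whether replicates came from separate cages, pools or extractions, so p-values measure the spread between these libraries, which may be technical.

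Muscle burns carbohydrate in mitochondria: pyruvate is oxidised in the tricarboxylic acid (TCA) cycle, its electrons pass through respiratory complexes, and ATP synthase makes the ATP that myosin and the calcium pump spend. Thick and thin filaments slide within sarcomeres anchored at Z discs, and the sarcoplasmic reticulum takes calcium back up between contractions. The proteasome degrades tagged proteins, and heat shock proteins hold or refold damaged ones. Flies answer bacteria and fungi through the Imd and Toll pathways, which act through NF-kappaB factors on antimicrobial peptide genes, mainly in fat body, a tissue that can adhere to dissected muscle.

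The 6 libraries held between 3000399 and 3541115 counts in genes, of which 8808 of 17494 genes had enough counts to be tested. Replicate 3 at 45 d stood apart. In that library 36.6% of all reads tallied had no unique alignment, against 7.6% to 8.6% in the other 5, and its mitochondrial genome share of gene counts was 5.46%, against 7.18% and 7.82% in the other 45 d libraries and 8.6% to 8.73% at 30 d. Its Spearman correlation with the other 45 d libraries was 0.9836 and 0.9868, against 0.9895 to 0.9904 within 30 d. Muscle identity matched the label: Mhc, the myosin heavy chain, stood at 2678, 2829.7 and 2849 CPM (counts per 1000000 counts in genes, scaled by TMM factors) at 30 d and 2599.6, 2576 and 2593 CPM at 45 d. RNA of other tissues was present at both ages. Summed over each list, gut markers ranged from 13821 to 15383 CPM at 30 d and from 15019 to 16120 CPM at 45 d, fat body markers from 18443 to 19176 and from 17347 to 21540 CPM, and neuron markers from 2159 to 2261 and from 1896 to 2181 CPM. The defining rhodopsin of the outer photoreceptors, ninaE, stayed between 0.29 and 3.58 CPM. None of the 19 tested gut markers and none of the 15 neuron markers passed the test. Of 10 tested fat body markers 1 fell, against 1.87% of all tested genes. Of 8 tested glia markers 1 rose, against 1.57%. It was Gs2, which lost its call in 5 of the 6 fits that left out 1 library. Summed glia markers ranged from 3509 to 3531 CPM at 30 d and from 3850 to 3921 CPM at 45 d. In such tissue samples, fewer cells of a type and less RNA per cell cannot be told apart.

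From 30 to 45 d, 138 genes rose (1.57% of the 8808 tested) and 165 fell (1.87%) at an adjusted p under 0.05, 303 in all (3.44%). Changes were mostly small, with a median size of 0.47 on the log2 scale among the called genes. Only 32 of the 138 rose and 9 of the 165 fell by at least 2-fold. The genes that rose included 12 of 15 tested antimicrobial peptides, 4 of 10 peptidoglycan recognition proteins and 17 of 31 proteasome subunits. Those that fell included 9 of 20 TCA cycle genes, 27 of 70 nuclear respiratory chain genes and a few contractile and calcium genes. The TCA and respiratory lists share genes, and with each gene counted once 32 of 86 fell. The test was edgeR's quasi-likelihood test with Benjamini-Hochberg adjustment over all tested genes. It was fitted on 9 muscle libraries, the 15 d libraries serving only to estimate the spread. The 3 d muscle libraries were left out because they spread more than the others, a choice that rests on these data. With all 12 muscle libraries in the fit, 3 d included, no gene passed in either direction (176 higher and 141 lower at an unadjusted p under 0.05), and the estimated coefficient of variation between replicates was then 0.21 instead of 0.0795. Leaving out 1 library at a time gave 58, 49 and 80 higher genes without 30 d replicates 1, 2 and 3, and 55, 140 and 137 without 45 d replicates 1, 2 and 3. The lower genes were then 69, 59 and 122, and 51, 118 and 205, in the same order.

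**Figure D1:**
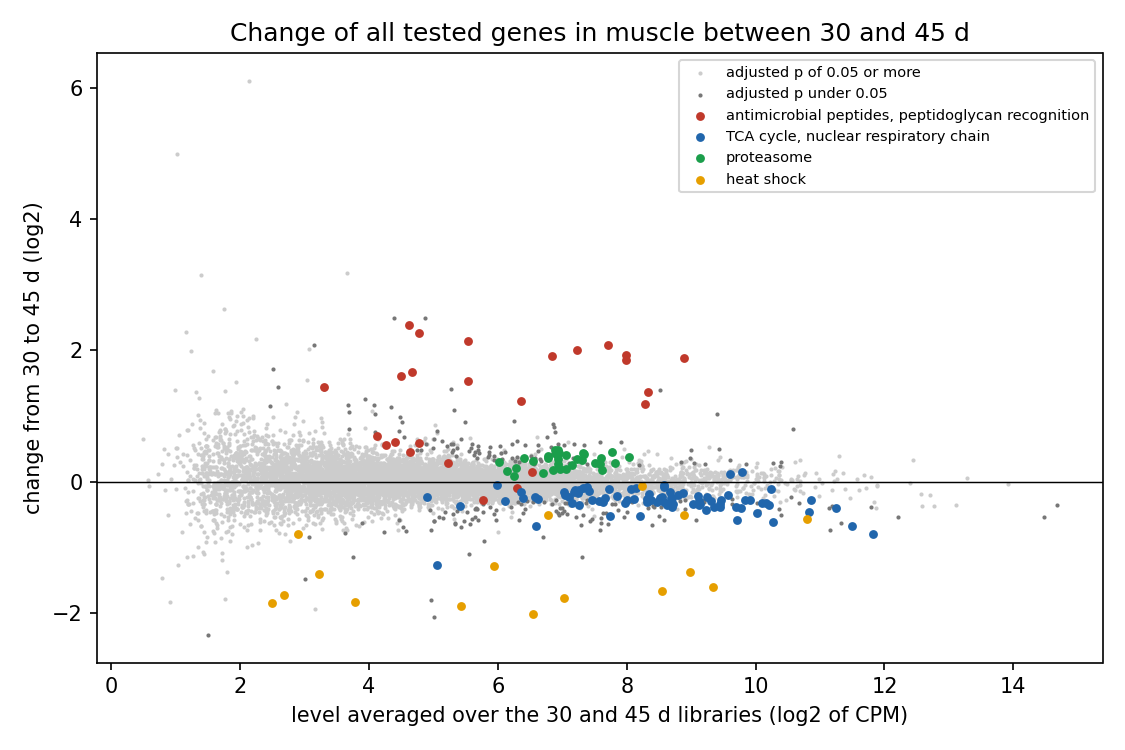
Change of every tested gene between 30 and 45 d (y axis, log2, above 0 is higher at 45 d) against its level averaged over the 6 libraries (x axis, log2 of CPM), with gene groups coloured. Antimicrobial and peptidoglycan recognition genes lie mostly above 0, the 31 proteasome genes all lie above 0, and the 70 nuclear respiratory chain genes all lie below it.

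Antimicrobial peptide genes showed the largest rise of any group described here. Of 15 tested members, 12 rose (80% against 1.57% of all tested genes) and none fell, with a list median of 1.88 on the log2 scale. DptB, a diptericin that acts on Gram-negative bacteria (FBgn0034407, 2R:18867391-18867895), stood at 95.9, 59.6 and 85.0 CPM at 30 d and at 301, 166 and 551 CPM at 45 d. All 3 libraries at 45 d were above all 3 at 30 d, although they differed more than 3-fold among themselves. The mean went from 80.2 ± 18.6 to 339 ± 195 CPM (SD, n = 3), a log2 change of 2.08 ± 0.34 (SE, adjusted p = 0.00339, edgeR). Mtk, the antifungal metchnikowin, moved from 90.7, 98.1 and 143 CPM to 393, 203 and 601 CPM, a log2 change of 1.85 ± 0.28 (adjusted p = 0.00212, edgeR). Again replicate 3 was the highest and replicate 2 the lowest library at 45 d.

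The other antimicrobial peptides followed the same order of libraries. AttC, an attacin, moved from 248, 161 and 199.9 CPM to 704, 353 and 1185 CPM (log2 change 1.88 ± 0.41, adjusted p = 0.0196, edgeR). CecA2, a cecropin that lyses bacterial membranes, moved from 11.4, 6.26 and 5.82 CPM to 30.3, 18.3 and 76.2 CPM (2.39 ± 0.48, adjusted p = 0.0125, edgeR). AttC lost its call without any 30 d library or without 45 d replicate 1 (highest adjusted p 0.126), and CecA2 without 30 d replicate 2 or 3 (highest 0.0846). Without 45 d replicate 3 the log2 change of CecA2 was 1.65, that of CecA1 1.42 instead of 2.26, and that of AttB 1.25 instead of 1.91. CecA1, AttA, DptA, AttB and the metchnikowin relative Mtkl rose as well, with log2 changes of 1.62 to 2.26, and passed in 2, 5, 4, 3 and 5 of the 6 leave-one-out fits. AttA and AttB are near-identical copies between which reads cannot be split with certainty. Drs, the antifungal drosomycin of the Toll pathway, moved from 102, 194 and 275 CPM to 406, 277 and 620.3 CPM, and Def and Dro, a defensin and drosocin, completed the 12. These 3 are outside the rule for named genes and were chosen after their values were seen. Dro was the only one of the 303 called genes whose groups overlapped, with 175 CPM in 1 library at 30 d and 125 CPM in 1 at 45 d. Also outside that rule, the 3 members that did not pass were CecC (1.45, adjusted p = 0.128, edgeR, and 0.74 without 45 d replicate 3), Drsl4 (-0.10) and Drsl5 (-0.28).

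The count of called antimicrobial peptides depended on how the spread was estimated. It was 5, 2 and 7 without 30 d replicates 1, 2 and 3, 8, 13 and 9 without 45 d replicates 1, 2 and 3, 4 with DESeq2 and 0 with a robust dispersion. DptB and Mtk kept their calls in each of the 6 fits that left out 1 library, and lost them with the robust dispersion (adjusted p = 0.113 and 0.0891, edgeR). Summed markers of fat body, the main tissue source of these peptides, stood at 18197, 17347 and 21540 CPM in 45 d replicates 1, 2 and 3. That is the same order of libraries as for the peptides. Not every member of the list followed it: Lsp1beta, described below, was lowest in replicate 1 and highest in replicate 3. At 30 d the sums ranged from 18443 to 19176 CPM. The part of fat body in the rise was not tested.

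Peptidoglycan recognition proteins, which bind bacterial cell wall and either start Imd or Toll signalling or cleave the ligand, rose in 4 of 10 tested members (40% against 1.57% of all tested genes), with all 10 log2 changes above 0 and a median of 0.59. PGRP-SD, a secreted receptor (FBgn0035806, 3L:7651180-7651900), stood at 52.5, 46.8 and 47.7 CPM at 30 d and 118, 92.4 and 133 CPM at 45 d. The groups were well apart, and the mean went from 49.0 ± 3.05 to 115 ± 20.7 CPM (SD, n = 3; log2 change 1.23 ± 0.14, adjusted p = 0.000351, edgeR). PGRP-SB1, an amidase, rose from 208, 175 and 157 CPM to 426, 341 and 629 CPM (1.37 ± 0.20, adjusted p = 0.00144, edgeR). PGRP-SC2, another amidase, rose from 8.46, 10.7 and 17.2 CPM to 42.6, 23.0 and 50.5 CPM (1.67 ± 0.26, adjusted p = 0.00238, edgeR). These 3 genes passed in each fit that left out 1 library, and PGRP-LE, the intracellular receptor, was the remaining call (0.60, adjusted p = 0.0436, edgeR) and passed in 1 of the 6. With a robust dispersion PGRP-SB1 had an adjusted p of 0.067 (edgeR). The list had 7 calls among 10 tested with scaling by library size alone, when 221 of all 8808 tested genes rose. With no filter on low counts it had 8 among 13 tested, when 299 of all 14038 tested genes rose.

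Within the signalling chain between receptors and peptides, 1 of 21 tested genes rose, against 1.57% of all tested genes. It was Rel, the NF-kappaB factor of the Imd pathway, at 204, 188 and 181 CPM at 30 d and 278, 241 and 353 CPM at 45 d (log2 change 0.60 ± 0.11, adjusted p = 0.00737, edgeR), and its adjusted p was 0.0584 without 30 d replicate 2. Bomanins, short secreted peptides induced by Toll, had 15 of 16 log2 changes above 0 and a median of 0.34, but none passed. The nearest named member, BomS1, had 167, 218 and 235 CPM at 30 d and 294, 240.3 and 336 CPM at 45 d (0.49 ± 0.14, adjusted p = 0.0677, edgeR). Without 45 d replicate 2, 3 bomanins passed, when 140 of all 8906 tested genes rose. With no filter on low counts 11 of 16 rose, and 299 of all 14038 tested genes did. None of the 4 tested Turandot genes, which encode secreted stress peptides, and none of the 10 tested hemocyte markers passed.

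**Figure D2:**
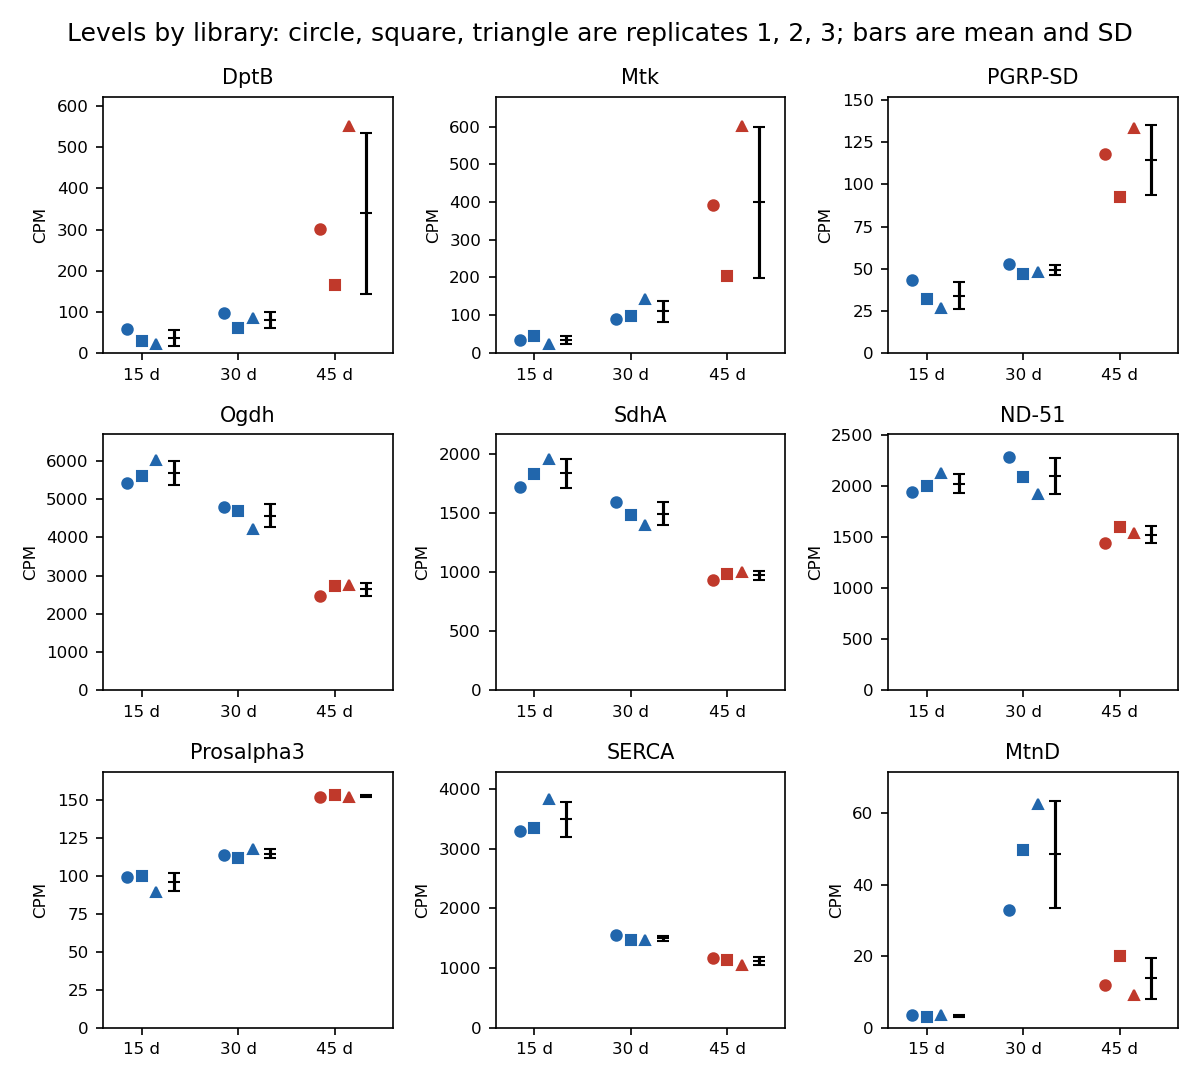
CPM of 9 genes in each of the 3 muscle libraries at 15, 30 and 45 d, 1 panel per gene, with points for libraries and a line for each mean. DptB, Mtk, PGRP-SD and Prosalpha3 are higher in every 45 d library than in any 30 d library, and Ogdh, SdhA, ND-51, SERCA and MtnD are lower.

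Part of the TCA cycle fell. Of 20 tested genes of pyruvate entry and the cycle, 9 fell (45% against 1.87% of all tested genes) and none rose, and 18 had a log2 change below 0, with a median of -0.25. Ogdh, the first subunit of the oxoglutarate dehydrogenase complex (FBgn0010352, 3L:16954822-16968724), stood at 4807, 4688 and 4225 CPM at 30 d and 2457, 2719 and 2749 CPM at 45 d. Every 45 d library was far below every 30 d library, and the mean fell 1.73-fold, from 4573 ± 307 to 2642 ± 161 CPM (SD, n = 3; log2 change -0.79 ± 0.07, adjusted p = 7.34e-05, edgeR). mAcon1, the mitochondrial aconitase that makes isocitrate, fell from 3792, 3584 and 3315 CPM to 2082, 2229 and 2348 CPM (-0.68 ± 0.07, adjusted p = 0.000206, edgeR).

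Succinate dehydrogenase, the enzyme shared by the TCA cycle and the respiratory chain as complex II, fell in several subunits. SdhA, its flavoprotein, stood at 1595, 1480.0 and 1401 CPM at 30 d and 931, 986 and 1002 CPM at 45 d (log2 change -0.62 ± 0.07, adjusted p = 0.000351, edgeR). SdhB, its iron-sulphur subunit, fell from 1276, 1174 and 1170.0 CPM to 857, 897 and 840.3 CPM (-0.48 ± 0.07, adjusted p = 0.00144, edgeR), and the membrane anchor SdhD fell by 0.53 on the log2 scale. PCB, pyruvate carboxylase, and Idh, isocitrate dehydrogenase, had log2 changes above 0 (0.12 and 0.15) that did not pass. The 9 TCA calls became 5, 6 and 9 without 30 d replicates 1, 2 and 3, and 5, 8 and 13 without 45 d replicates 1, 2 and 3. Ogdh, mAcon1, SdhA, SdhB and SdhD passed in all 6 of these fits.

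Of 70 tested nuclear genes of the respiratory chain, 27 fell (against 1.87% of all tested genes), none rose and all 70 log2 changes were below 0, with a median of -0.28. Complex I, which takes electrons from NADH, fell in 11 of 33 tested genes (33.3%), and complexes II to V fell in 16 of 37 (43.2%). ND-51, the subunit that binds NADH, stood at 2283, 2090.3 and 1926 CPM at 30 d and 1442, 1599 and 1539 CPM at 45 d (log2 change -0.46 ± 0.07, adjusted p = 0.00238, edgeR). ND-B8, an accessory subunit, had the largest fall of the chain, from 48.1, 52.8 and 39.3 CPM to 17.1, 19.9 and 21.5 CPM (-1.27 ± 0.16, adjusted p = 0.000769, edgeR). Cyt-c-p, the cytochrome c that carries electrons to complex IV, fell from 1083, 1015 and 933 CPM to 606, 695 and 712 CPM (-0.59 ± 0.08, adjusted p = 0.000911, edgeR).

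ATPsynbeta, the catalytic subunit of ATP synthase, fell from 2929, 2776 and 2611 CPM to 1978, 2079 and 2215 CPM (log2 change -0.41 ± 0.07, adjusted p = 0.00269, edgeR). This gene lies outside the rule for named genes and was chosen after its values were seen. Without 30 d replicates 1, 2 and 3, the falls called were 2, 2 and 10 in complex I and 6, 6 and 17 in complexes II to V. Without 45 d replicates 1, 2 and 3 they were 2, 7 and 10 in complex I and 5, 10 and 22 in complexes II to V. With no filter on low counts, 27 of 50 tested genes of complexes II to V fell, and 288 of all 14038 tested genes did. ND-51, ND-B8, Cyt-c-p and ATPsynbeta passed in each of the 6 leave-one-out fits.

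Genes of the mitochondrial genome were read mainly as mt:lrRNA, the large ribosomal RNA, and mt:CoI, a core subunit of complex IV. Of 15 tested, these 2 fell, against 1.87% of all tested genes. mt:CoI stood at 27208, 27236 and 26656 CPM at 30 d and 18845, 22041 and 15194 CPM at 45 d (log2 change -0.53 ± 0.10, adjusted p = 0.00727, edgeR), with the lowest value in replicate 3. mt:lrRNA stood at 29906, 29459 and 28923 CPM at 30 d and 23364, 25055 and 20258 CPM at 45 d (-0.36 ± 0.07, adjusted p = 0.00732, edgeR). Without replicate 3 the log2 change of mt:lrRNA was -0.28 (adjusted p = 0.0117, edgeR). At 15 d its mean was 63197 ± 919 CPM (SD, n = 3). The list median was -0.31, and -0.05 without 45 d replicate 3, when the same 2 genes fell and mt:ND4L, a complex I subunit outside the rule for named genes, rose (log2 change 1.02, adjusted p = 0.0258, edgeR). Without 45 d replicate 2, 4 genes of the mitochondrial genome fell, when 118 of all 8906 tested genes did. With no filter 8 of 15 did, when 288 of all 14038 tested genes fell. Of 71 tested proteins of the mitochondrial ribosome, 2 fell (2.82%, against 1.87% of all tested genes), among them mRpS7 from 149.6, 144 and 143 CPM to 106, 114 and 111 CPM.

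Glycolysis had calls in both directions. Ald1, the aldolase, fell from 5803, 5696 and 5276 CPM to 3713, 4008 and 3862 CPM (log2 change -0.53 ± 0.06, adjusted p = 0.000353, edgeR), and Pfk, Pglym78 and Eno fell by 0.31, 0.32 and 0.24 on the log2 scale. Ldh, lactate dehydrogenase, which turns pyruvate into lactate, rose from 41.1, 38.8 and 38.1 CPM to 56.0, 55.2 and 57.6 CPM (0.52 ± 0.10, adjusted p = 0.00766, edgeR). Of 16 tested members, 4 fell and 1 rose, against 1.87% and 1.57% of all tested genes, and 15 had a log2 change below 0. The 4 falls became 1, 1 and 3 without 30 d replicates 1, 2 and 3, 1, 1 and 4 without 45 d replicates 1, 2 and 3, and 1 with scaling by library size alone. Ald1 and Ldh passed in each fit that left out 1 library. None of the 7 tested genes of glycogen and trehalose metabolism passed.

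Of 31 tested proteasome subunits, 17 rose (54.8% against 1.57% of all tested genes), and all 31 log2 changes were above 0, with a median of 0.32. Prosalpha3, a subunit of the outer ring of the core particle (FBgn0261394, 2R:20994900-20996118), stood at 114, 112 and 118 CPM at 30 d and 152, 153 and 152 CPM at 45 d. The spread within each age was far smaller than the step between them (log2 change 0.41 ± 0.07, adjusted p = 0.00359, edgeR). Prosbeta6, of the inner ring that cuts proteins, rose from 102, 86.2 and 107 CPM to 149.8, 131 and 132 CPM (0.49 ± 0.09, adjusted p = 0.00512, edgeR). Prosalpha5, of the outer ring, rose from 102, 109 and 104 CPM to 143, 139 and 143 CPM (0.43 ± 0.08, adjusted p = 0.00719, edgeR). The 17 calls became 4, 4 and 14 without 30 d replicates 1, 2 and 3, and 3, 17 and 16 without 45 d replicates 1, 2 and 3, while these 3 subunits passed each time. None of the 19 tested autophagy genes passed. The cytosolic ribosome had 80 of 82 log2 changes above 0 with a median of 0.10, and none passed.

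**Figure D3:**
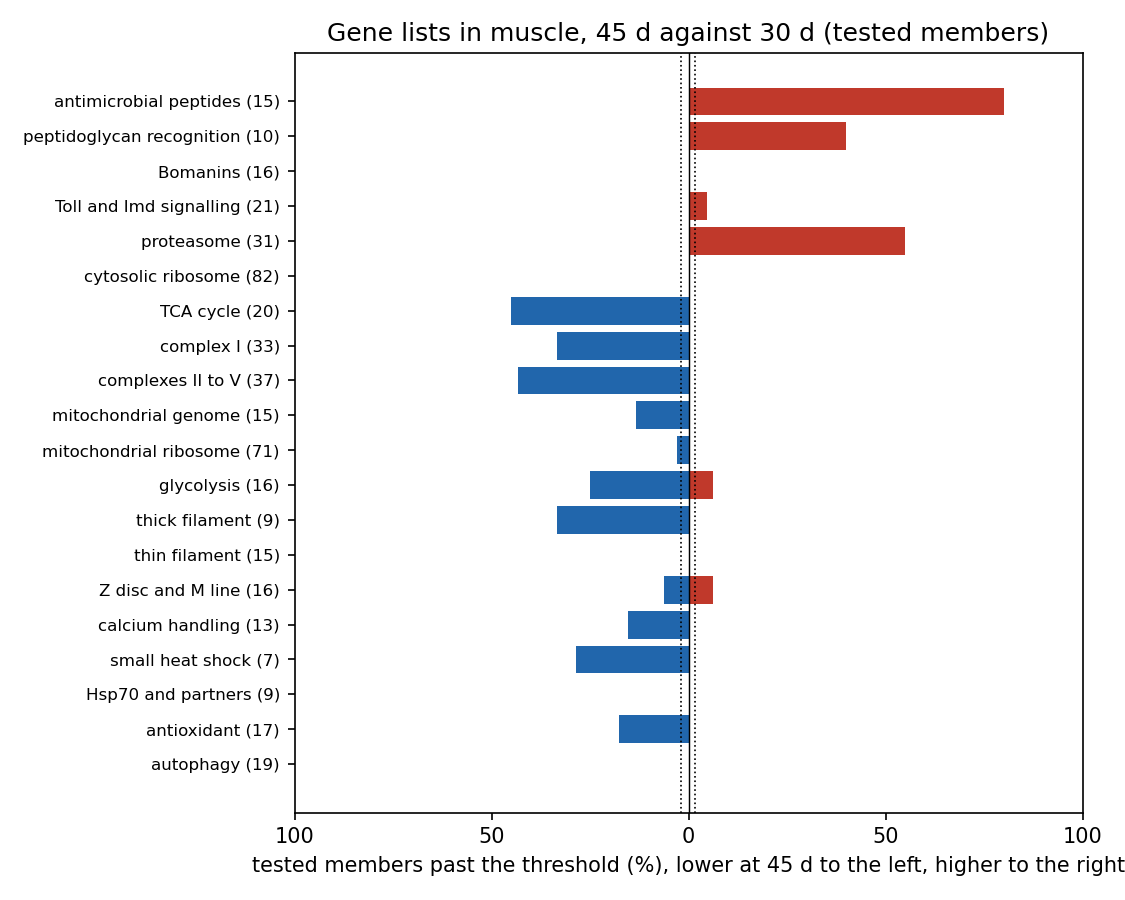
Share of tested members past the threshold in 20 gene lists (x axis, percent, lower at 45 d to the left in blue and higher to the right in red), with the number of tested members in brackets. The dotted lines mark the shares over all tested genes, 1.87% lower and 1.57% higher, and antimicrobial peptides, the proteasome and the TCA cycle reach farthest beyond them.

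Contractile proteins changed in a few members. In the thick filament, 3 of 9 tested genes fell, against 1.87% of all tested genes. Strn-Mlck, a large kinase related to myosin light chain kinases, fell from 1573, 1609.7 and 1543 CPM to 1046, 1155 and 1113 CPM (log2 change -0.51 ± 0.07, adjusted p = 0.00118, edgeR). fln, flightin, which binds myosin in indirect flight muscle, fell from 19.2, 17.9 and 18.9 CPM to 10.7, 8.51 and 5.47 CPM (-1.16 ± 0.20, adjusted p = 0.00468, edgeR). The projectin gene bt fell by 0.38 and lost its call in 4 of the 6 leave-one-out fits (highest adjusted p 0.134). Mhc itself had a log2 change of -0.11 ± 0.06 (adjusted p = 0.423, edgeR). None of the 15 tested thin filament genes passed. Act88F, the actin of indirect flight muscle, moved opposite to fln without passing. It had 223, 261 and 290 CPM at 30 d and 311, 324 and 333 CPM at 45 d (0.32 ± 0.15, adjusted p = 0.286, edgeR). Act88F is outside the rule for named genes and was chosen after its values were seen. The thin filament gene nearest the threshold, the actin Act57B, had 1351, 1501 and 1551 CPM at 30 d and 1901, 1919 and 1697 CPM at 45 d (0.33 ± 0.09, adjusted p = 0.0598, edgeR).

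At the Z disc and M line, 1 of 16 tested genes fell and 1 rose, against 1.87% and 1.57% of all tested genes. Zasp66, a PDZ domain protein of the Z disc, fell from 1285, 1187 and 1224 CPM to 875, 937 and 894 CPM (log2 change -0.45 ± 0.07, adjusted p = 0.00188, edgeR). cpb, an actin capping subunit, rose from 51.9, 53.1 and 62.3 CPM to 76.6, 78.2 and 72.7 CPM (0.44 ± 0.09, adjusted p = 0.0125, edgeR) and lost its call in 3 of the 6 leave-one-out fits (highest adjusted p 0.0795). Of 13 tested calcium genes, 2 fell, against 1.87% of all tested genes. SERCA, the pump that returns calcium to the sarcoplasmic reticulum, stood at 1552, 1477 and 1477 CPM at 30 d and 1178, 1132 and 1049 CPM at 45 d (-0.42 ± 0.07, adjusted p = 0.00386, edgeR). Scp1, a sarcoplasmic calcium-binding protein, fell from 273, 297 and 311 CPM to 222, 209 and 174 CPM (-0.54 ± 0.10, adjusted p = 0.00535, edgeR). Both were higher still at 15 d, with means of 3491 and 998 CPM.

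Heat shock genes turned on 1 library. At 30 d they were high in all 3 libraries. At 45 d replicates 1 and 2 were below every 30 d library in 14 of the 16 tested genes. Replicate 3 was at or above the lowest 30 d library in 5 of the 16. The same counts for the 70 tested nuclear respiratory chain genes were 61 and 18, so these counts alone do not set heat shock genes apart. The shares over all tested genes are not given here, so the counts have no background. Hsp68, an inducible chaperone of the Hsp70 class, stood at 883, 969 and 1067 CPM at 30 d and 57.9, 41.3 and 863 CPM at 45 d. Hsp26, a small heat shock protein, stood at 503, 587 and 616 CPM and then at 39.7, 37.8 and 464 CPM. DnaJ-1, a co-chaperone, stood at 643, 723 and 825 CPM and then at 102, 110 and 634 CPM, and it too was low in 2 of the 3 libraries.

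With all 3 libraries at 45 d, all 16 log2 changes were below 0 with a median of -1.51. Only CG7409 and Hsp67Bc fell past the threshold (2 of 16, against 1.87% of all tested genes). They passed in 3 and 1 of the 6 leave-one-out fits. Hsp68 then had a log2 change of -1.61 ± 0.71 (adjusted p = 0.266, edgeR) and Hsp26 of -1.67 ± 0.62 (adjusted p = 0.173, edgeR). Without replicate 3 at 45 d, 14 of 16 fell and none rose, against 2.3% lower and 1.54% higher of all tested genes in that fit. Hsp68 then changed by -4.28 (adjusted p = 5.81e-08, edgeR) and Hsp26 by -3.87 (adjusted p = 4.48e-08, edgeR). With no filter on low counts, 9 of 10 genes of the Hsp70 class and its partners and 5 of 8 small heat shock genes fell. In that fit 288 of all 14038 tested genes fell. The Hsp70 copies are near-identical, and reads can be split between them in a way the counts do not show. Replicate 3 was also the library with 36.6% of reads without a unique alignment. That share was 7.6% and 8.59% in 45 d replicates 1 and 2. It was 7.89% to 8.35% at 30 d, where heat shock genes were high as well. Its part in the pattern was not tested.

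Clock genes also set replicate 3 apart from its group. per, which represses its own transcription in a daily cycle, stood at 30.3, 38.2 and 44.5 CPM at 30 d and 57.6, 64.0 and 21.2 CPM at 45 d, and its partner tim at 147, 216 and 308 CPM and then at 335, 459.8 and 72.4 CPM. Replicates 1 and 2 at 45 d were above all 30 d libraries for both genes, and replicate 3 was below all of them. None of the 8 tested clock genes passed (tim 0.37 ± 0.43, adjusted p = 0.741, edgeR). Without replicate 3, per and cwo, another clock repressor, passed as higher. In the 45 d head library numbered 3, per and tim were also the lowest of the 3, at 29.5 CPM against 163 and 194 CPM and at 98.1 CPM against 627 and 825 CPM. The labels give no time of day, and its part was not tested.

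**Figure D4:**
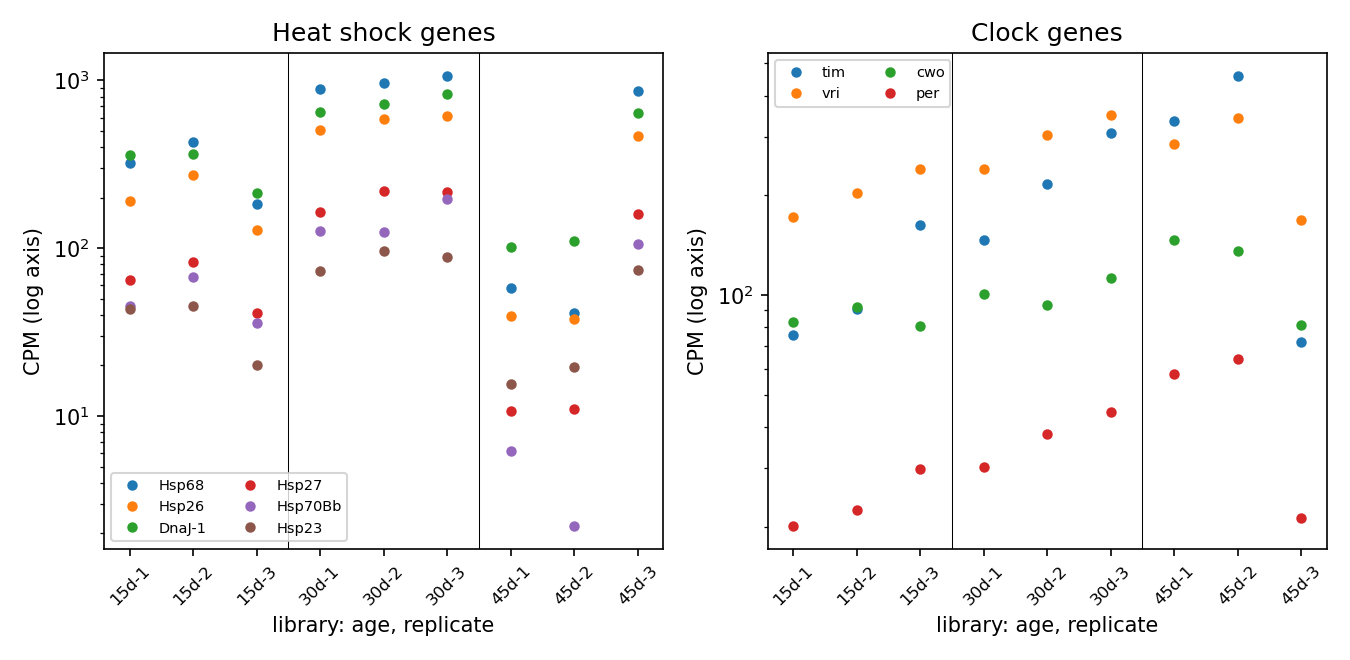
CPM (log axis) of 6 heat shock genes (left) and 4 clock genes (right) in each muscle library at 15, 30 and 45 d, with 1 point per library. At 45 d, Hsp68 is at 57.9 and 41.3 CPM in replicates 1 and 2 and 863 CPM in replicate 3, and tim is at 335 and 459.8 CPM and then 72.4 CPM.

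Metallothioneins, small cysteine-rich proteins that bind copper and zinc, gave all 3 falls among 17 tested antioxidant and metal genes, against 1.87% of all tested genes. MtnD (FBgn0053192, 3R:20534962-20535301) stood at 32.9, 49.8 and 62.6 CPM at 30 d and 12.1, 20.2 and 9.33 CPM at 45 d (log2 change -1.81 ± 0.24, adjusted p = 0.000911, edgeR). Its mean at 15 d was 3.34 ± 0.37 CPM (SD, n = 3), so the 30 d libraries were the highest of the 3 ages. MtnA, the most abundant member, fell from 2178, 3456 and 2940.4 CPM to 1841, 1884 and 1418 CPM (-0.74 ± 0.15, adjusted p = 0.0125, edgeR; highest adjusted p with 1 library left out 0.0943), and MtnE by 0.74. Mal-A4, a maltase (FBgn0033294, 2R:8458815-8460884), had the largest rise among the named genes, from 4.08, 5.07 and 9.60 CPM to 28.4, 24.6 and 54.0 CPM (2.49 ± 0.36, adjusted p = 0.00148, edgeR). Lsp1beta, a larval storage protein made by fat body, fell from 175, 229.9 and 246 CPM to 84.1, 97.8 and 113 CPM (-1.15 ± 0.18, adjusted p = 0.00238, edgeR). It was the only 1 of 10 tested fat body markers to pass, against 3.44% of all tested genes in either direction. Both Mal-A4 and Lsp1beta passed in each of the 6 leave-one-out fits, and with a robust dispersion their adjusted p was 0.0602 and 0.082 (edgeR). The 3 metallothionein calls became 1 without 30 d replicate 2 and 2 without 45 d replicate 1.

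Gcn5, the acetyltransferase the series is about, stood at 72.3, 80.2 and 76.8 CPM at 30 d and 84.7, 94.3 and 77.2 CPM at 45 d (log2 change 0.16 ± 0.08, adjusted p = 0.372, edgeR). None of the 25 tested genes of its SAGA and ATAC complexes, of the 15 other acetylation genes or of the 13 heterochromatin genes passed.

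The same ages in heads, from 6 other libraries, show where the step in muscle differed. In a joint fit of 18 head and muscle libraries, the change from 30 to 45 d differed between the tissues for 7 of 9455 genes (0.074%), in this fit all with the muscle change below the head change. These were Ogdh, mAcon1, SdhA, SdhB, Ald1, Npl4, a cofactor that delivers tagged proteins to the proteasome, and plx, whose protein carries a Rab GTPase-activating domain. Npl4 and plx are outside the rule for named genes and were chosen after their values were seen. Ogdh stood at 743, 740.4 and 763 CPM in heads at 30 d and 742, 710.4 and 768 CPM at 45 d (log2 change -0.02 ± 0.07), while it fell by 0.79 in muscle. The difference was -0.77 (adjusted p = 0.000331, edgeR) for Ogdh and -0.69 (adjusted p = 0.000491, edgeR) for mAcon1. Over the 70 nuclear respiratory chain genes, ND-B8 with no counts in heads included, the median change in heads was -0.06, with 59 of 70 below 0. None was past the threshold, against 0.508% higher and 0.201% lower of all tested genes in heads. The share of all genes below 0 in heads is not given here, so the 59 has no background. The number of genes whose change differed by tissue ranged from 3 to 18 with 1 library left out (3 without head replicate 2 at 30 d or at 45 d, 18 without head replicate 3 at 45 d, 16 and 11 without muscle replicates 3 and 2 at 45 d) and was 35 with DESeq2.

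The antimicrobial peptides were also read in heads. DptB stood at 99.2, 63.9 and 62.4 CPM in heads at 30 d and 310.4, 177 and 602 CPM at 45 d, a log2 change of 2.27 ± 0.50, and the difference from muscle was -0.19 (adjusted p = 0.98, edgeR). Mtk stood at 108, 139 and 69.4 CPM and then at 446, 227 and 720.0 CPM. The order of the 45 d libraries by replicate number was the same as in muscle, and the labels do not say whether heads and muscles of 1 number came from the same flies. Of the 138 genes that rose in muscle, 123 had a head log2 change above 0, with a median of 0.20 in heads and 0.52 in muscle. Of the 165 that fell, 128 were below 0 in heads, with medians of -0.07 and -0.43. The shares of all genes above and below 0 in heads are not given here, so these counts have no background. Deviations from the group mean correlated at 0.0317, 0.179 and 0.202 between 45 d head and muscle libraries of 1 number. Between libraries of unlike number the correlations were -0.203 to 0.0505, so the heads may not be independent of the muscles.

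**Figure D5:**
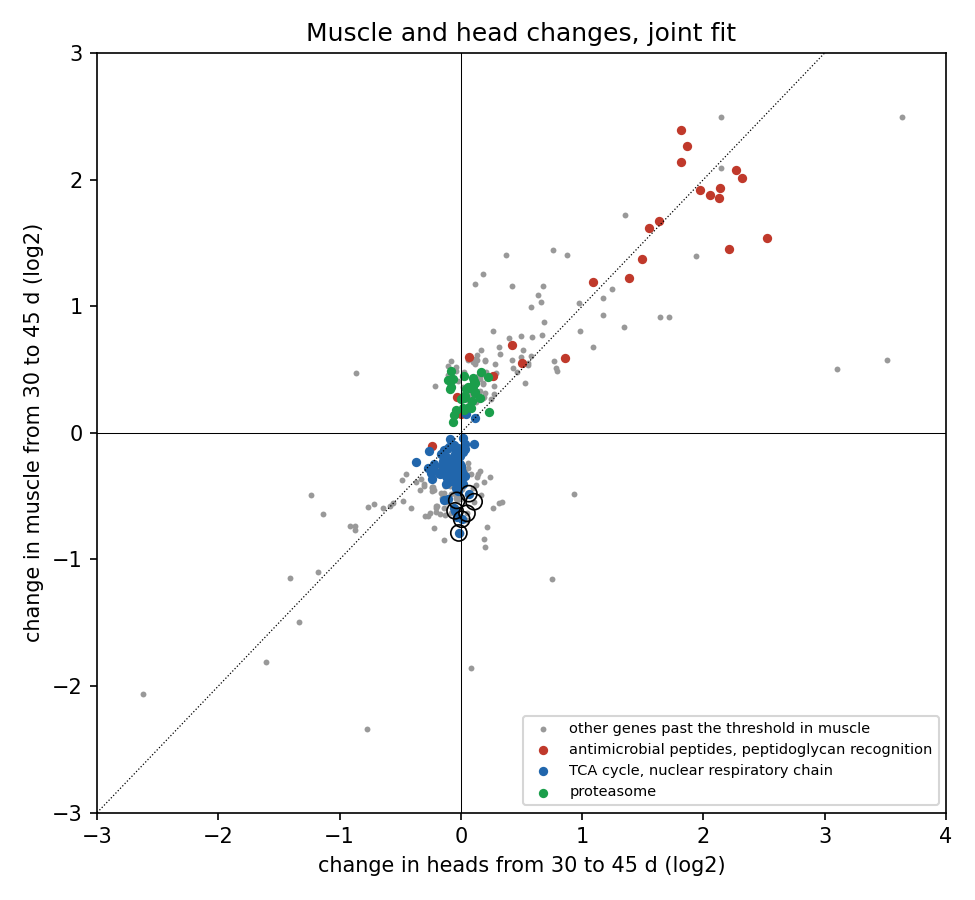
Change from 30 to 45 d in muscle (y axis, log2) against the change in heads (x axis, log2) in the joint fit, for genes past the threshold in muscle and for the coloured groups, ND-B8 left out because it had no counts in heads. Immune genes lie near the dotted line of equal change, whereas TCA cycle and respiratory genes lie near 0 in heads and below 0 in muscle, with the 7 genes that differed between tissues circled.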

How the data were processed

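Poly-A RNA was extracted with RNAiso Plus and sequenced as single-end reads of 100 nt, per the labels' protocols. The deposited files hold whole-number counts per gene, 1 file per library. Among tools, the submitters' processing notes list STAR 2.7.6a, Trim Galore 0.6.6, DESeq2 and featureCounts 2.0.1, while the tallies at the end of each file have the form htseq-count writes. For these files the genome build, the annotation and whether strand was used were not given in the sources used here, so overlapping and antisense genes cannot be told apart. Gene names, coordinates and lengths come from the FlyBase r6.36 columns of the series' whole-fly files, and 99.2% of genes had a symbol.

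The 5 tally lines that name no gene were left out. Counts were filtered with filterByExpr (minimum count 10, minimum total 15), scaled by TMM and tested with edgeR 4.0.16 (limma 3.58.1, R 4.3.3), adjusted p under 0.05. Errors of log2 changes are the change divided by the square root of F. The heads entered an interaction of tissue and age over 18 libraries. The scripts were tested on simulated data. DESeq2 1.42.0, other scalings, filters and dispersions, a replicate block and leaving out each library were alternatives. The fit without 45 d replicate 3 among the compared libraries alone and the block of head and muscle pairs were chosen after seeing the data. No libraries agreed within sampling noise (chi-square per gene 2.01 to 7.04).

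Members and lists were chosen with earlier results of these data known. Genes were named by a rule: Gcn5, mt:lrRNA, the 12 largest called rises and falls among symbols with a mean log2 CPM of at least 2 and no overlap, and the up to 3 members of each list with the smallest p (150 genes). Those printed were picked from them after their values were seen. SdhD, PCB, Idh, Pglym78, Eno, Mhc, Hsp68, Hsp26, DnaJ-1, per and tim lie outside the rule, and the text states the other exceptions. List entries with no match, such as Unc-89, GlyP and Vps34, were not analysed here. No sequence is printed.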

Additional observations from a re-analysis of the deposited data

Results flagged for a closer look

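For 7 genes the change from 30 to 45 d differed between muscle and heads by a test of the difference itself (edgeR's interaction of tissue and age, Benjamini-Hochberg adjustment). In each of them muscle fell and the head change lay between -0.05 and 0.11 on the log2 scale. The differences, muscle minus head, were -0.77 for Ogdh (adjusted p = 0.000331, edgeR), -0.69 for mAcon1 (0.000491), -0.69 for Npl4 (0.00132), -0.65 for plx (0.0133), -0.57 for SdhA (0.0107), -0.55 for SdhB (0.0107) and -0.50 for Ald1 (0.0236). Npl4 stood at 3302, 3102 and 3001 CPM in muscle at 30 d and at 2016, 2013 and 2021 CPM at 45 d, and between 87.4 and 96.8 CPM in the 6 head libraries. plx went from 164, 191 and 171 CPM to 118, 117 and 125 CPM in muscle and from 212, 181 and 184 CPM to 216, 214 and 192 CPM in heads.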

How the results depend on the processing

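Against 138 higher and 165 lower genes, a fit of the 6 compared libraries alone gave 157 and 170, DESeq2 97 and 158, RLE factors 129 and 167, robust dispersion 144 and 203, and a minimum count of 30 gave 140 and 169. No filter gave 299 and 288 of 14038 genes, and scaling by library size alone 221 and 106 (67.6% of calls higher instead of 45.5%, with the median of all genes at 0.07). All 12 muscle libraries gave 0 and 0. Leaving out 1 library gave 49 to 140 higher and 51 to 205 lower genes. Without 45 d replicate 3, 247 of the 303 calls remained, and with the compared libraries alone 211 and 294 passed, 284 of them shared. The cause was not tested. Replicate numbers did not pair the ages (correlations of deviations -0.0484 to 0.0618), and the replicate block gave 109 and 124. The 7 genes that differed between tissues became 35 with DESeq2, 25 with no filter, 4 with the replicate block, 18 with a block of head and muscle pairs (all 7 among them, with the muscle change above the head change in 4 of the 18, namely Prosbeta6, Cnx99A, CG10638 and CG13077; correlations of pairs -0.00346 to 0.202), and 3 to 18 with 1 library left out. Depths of 3000399 to 3541115 counts limit genes of a few CPM.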

Other observations

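Several smaller groups were chosen after their values were seen and are given as values only. Over all tested genes, 1.57% rose and 1.87% fell. The chaperonin CCT, which folds actin and tubulin, had all 8 tested subunits above 0, and 2 rose: CCT5 from 105, 109 and 101 CPM to 162, 143 and 158 CPM (log2 change 0.56 ± 0.09, adjusted p = 0.00339, edgeR), and CCT2 (0.36). Mitochondrial carriers fell in 3 of 9 tested members, and 8 of the 9 log2 changes were below 0. Among those that did not pass was the phosphate carrier Mpcp2 (-0.004, adjusted p = 0.992, edgeR). Mpcp1, another phosphate carrier, fell from 473, 461 and 438 CPM to 293, 315 and 302 CPM (-0.59 ± 0.08, adjusted p = 0.000911, edgeR). The other falls were the ADP/ATP translocase sesB (-0.40) and the uncoupling protein Ucp4A (-0.35). Of the 6 fits that left out 1 library, CCT2 passed in 4, sesB in 5 and Ucp4A in 1, while CCT5 and Mpcp1 passed in all.

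Gnmt, which uses up S-adenosylmethionine, rose from 239, 218 and 147 CPM to 499, 389 and 699 CPM (1.39 ± 0.24, adjusted p = 0.00375, edgeR), and Ahcy, which clears the product, rose by 0.53. Among nuclear factors, Ku80 of the DNA end-joining complex rose from 13.7, 15.5 and 16.0 CPM to 36.4, 28.4 and 24.4 CPM (0.99 ± 0.16, adjusted p = 0.00238, edgeR). Its partner Irbp did not pass (0.35 ± 0.17, adjusted p = 0.326, edgeR), and its groups overlapped. Both subunits of the histone chaperone FACT rose, Ssrp by 0.54 and dre4 by 0.38, as did RPA1, which binds single-stranded DNA, by 0.37. The capsid-like genes Arc1 and Arc2 rose by 0.81 and 0.57. In the leave-one-out fits dre4 and Arc1 passed in 1 of 6 and Arc2 in 2 of 6, and Gnmt, Ahcy, Ku80, Ssrp and RPA1 passed in all.

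The asparagine synthetase AsnS was at 139, 131 and 128 CPM at 30 d and 51.2, 61.2 and 112 CPM at 45 d, with replicate 3 nearest the 30 d libraries as for the heat shock genes. Its log2 change was -0.84 ± 0.19 (adjusted p = 0.0233, edgeR) with that library and -1.25 (adjusted p = 4.14e-06, edgeR) without it, and it lost its call in the other 5 fits that left out 1 library.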
